A study of Homo sapiens with 4 samples.

Results

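The inflammasome and IL-1 family set held 10 genes of the 35585 to which transcripts were assigned, chosen by name for their roles: the sensors NLRP3, NLRC4 and AIM2, the adaptor PYCARD, the caspases CASP1 and CASP4, the pore protein GSDMD, the cytokines IL1B and IL18, and the antagonist IL1RN. They were followed in iMGL, cells with a microglial character grown from WTC11, a widely used human stem cell line of induced pluripotent origin. Poly-A RNA was sequenced from 2 libraries of cells edited in the gene of the inositol phosphatase SHIP1 (S1KO, labelled KO for genotype) and from 2 libraries of unedited cells (WT). No treatment or stimulus is named in the labels for either genotype. The design text speaks of 2 clones per genotype, and the labels do not say which library is which clone. Of the 10 genes, 9 passed the filter on low counts and AIM2 did not.

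An inflammasome is a protein assembly in which a sensor recruits the adaptor ASC, encoded by PYCARD, and through it activates caspase-1. Caspase-1 cuts the precursors of IL-1 beta and IL-18 into their active forms and cuts gasdermin D, whose fragment opens pores in the plasma membrane. In microglia and macrophages a priming signal through NF-kappaB raises transcription of IL1B and NLRP3 before assembly, so that transcript level and activation are separate steps, and the RNA measured here bears on the first of them.

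With both WT libraries in the comparison, 0 of the 9 tested genes were called (edgeR's quasi-likelihood test, adjusted p under 0.05), beside 0.936% of all 15378 genes tested. At an unadjusted p under 0.05 there was 1 of the 9, IL1B, beside 19.5% of all genes. DESeq2 called 1, again IL1B, beside 4.99% of its genes. That share is over 22522 genes taken without the filter, some of which received no adjusted p. IL1B, which encodes IL-1 beta, stood at 0.389 of its WT level in S1KO, the lowest ratio of the 9, and IL18 and NLRC4 at 1.48 and 1.46 of theirs. The machinery between sensor and cytokine lay closer to its WT level, from 0.811 for PYCARD to 1.16 for CASP1. The size of the IL1B difference, and the direction of the IL1RN difference, depended on which WT library was used.

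The libraries held 22792480 and 22334585 estimated counts in S1KO, against 21516813 and 25927881 in WT. Mitochondrial transcripts took 52.32% and 39.24% of them in S1KO, against 14.2% and 18.9% in WT. Without them and without the nuclear copies of mitochondrial genes the S1KO libraries were shallower, with 9392616 and 12990887 counts, against 18193785 and 20706756 counts in WT. Levels below are CPM, the counts of a gene relative to the total of its library, scaled by TMM, a normalization that sets the typical gene to no difference. INPP5D, the gene of SHIP1, had 81.0 and 97.6 CPM in S1KO, against 355.7 and 441.0 CPM in WT (log2 fold change -2.16 ± 0.21 SE, edgeR adjusted p = 0.0184). Among marker lists, 12 of 12 myeloid and microglial genes passed the filter, 1 of them called (P2RY12, lower in S1KO), with summed levels of 2917 and 2978 CPM in S1KO against 3994 and 4439 CPM in WT. The mesenchymal list, led by COL1A1, summed to 16.1 and 34.7 CPM in S1KO, against 3793 CPM in WT 1 and 10.8 CPM in WT 2, and all 8 of its tested members were highest in WT 1. Summed monocyte markers were at 162.1 and 149.0 CPM in S1KO against 203.6 and 190.8 CPM in WT, although FCN1, the 1 called gene of that list, was higher in S1KO, with 9.91 and 7.90 CPM against 1.47 and 1.09 CPM in WT (2.80 ± 0.37 SE, edgeR adjusted p = 0.0405). Summed pluripotency markers were at 16.8 and 16.9 CPM in S1KO against 6.36 and 7.85 CPM in WT. The part that these differences between libraries have in the values below was not tested. Tested genes of the inflammasome and IL-1 family set are also given against each WT library alone. For single genes of the wider pathway, fold changes are against both WT libraries together. Of the 12 granulocyte and mast cell markers 5 had no count in any library, among them the defining granule genes MPO, ELANE and PRTN3. The list summed to 146.6 and 205.8 CPM in S1KO, against 257.3 and 253.3 CPM in WT, nearly all of it CSF3R, with 144.2 and 203.9 CPM in S1KO, against 256.1 and 250.8 CPM in WT. In bulk RNA, fewer cells of a type and less RNA per cell cannot be told apart. That the libraries came from independent cultures is not stated, and p-values measure only the spread between these libraries, which may be technical.

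The stretches upstream of the annotated starts of IL1B, NLRP3 and IL1RN are shown because priming is known to raise IL1B and NLRP3 transcription, and because IL1RN is read from separate starts. Each line holds the 250 bases before a start in RefSeq (GRCh38.p14), read 5′ to 3′ on the gene's own strand. Capitals mark matches, on either strand, to 5 short motifs: C/EBP as TTGCNNAA, PU.1 as AGGAAG, AP-1 as TGANTCA, NF-kappaB as GGG, any 2 bases and TTTCC, and the TATA box as TATAAA.
IL1B, chr2:112836780-112837029, minus strand: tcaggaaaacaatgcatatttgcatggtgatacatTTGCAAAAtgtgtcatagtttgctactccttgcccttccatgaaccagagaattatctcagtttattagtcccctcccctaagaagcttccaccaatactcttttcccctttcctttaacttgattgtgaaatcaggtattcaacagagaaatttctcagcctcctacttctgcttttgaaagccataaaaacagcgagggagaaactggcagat
NLRP3, chr1:247415923-247416172, plus strand: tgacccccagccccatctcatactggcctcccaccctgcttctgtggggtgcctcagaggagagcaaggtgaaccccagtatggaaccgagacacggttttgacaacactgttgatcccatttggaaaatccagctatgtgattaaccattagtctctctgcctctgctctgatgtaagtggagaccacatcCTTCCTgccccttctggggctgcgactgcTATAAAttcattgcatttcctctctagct
IL1RN upstream start, chr2:113117721-113117970, plus strand: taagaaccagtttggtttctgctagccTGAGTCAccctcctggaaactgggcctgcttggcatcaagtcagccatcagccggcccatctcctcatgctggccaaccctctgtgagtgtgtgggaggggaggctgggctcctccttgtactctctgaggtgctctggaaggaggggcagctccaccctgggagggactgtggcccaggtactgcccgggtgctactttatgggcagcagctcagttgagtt
IL1RN downstream start, chr2:113127348-113127597, plus strand: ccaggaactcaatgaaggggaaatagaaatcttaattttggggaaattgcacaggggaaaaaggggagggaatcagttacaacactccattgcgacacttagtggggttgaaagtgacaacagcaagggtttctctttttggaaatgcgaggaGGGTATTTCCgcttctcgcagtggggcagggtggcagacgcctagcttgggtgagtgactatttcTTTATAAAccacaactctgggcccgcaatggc
Counting back from -1 at the base before the start, the IL1B window held a C/EBP match at -215, a motif present in 9.05% of all 35116 windows of this length. The NLRP3 window held a PU.1 match at -58, read on the opposite strand, and a TATA box at -29, motifs found in 28.7% and 10.7% of windows. The upstream IL1RN window held an AP-1 match at -223 (6.57% of windows), and the downstream window an NF-kappaB match at -97 (1.73% of windows) and, nearer the start, a pair of overlapping TATA matches, 1 per strand. A match describes letters in the window and no more. In GENCODE 29, used for the counts, IL1B-201 and NLRP3-206 begin inside their windows, at 112836903 and 247416156. Part of each of these windows therefore lies within a counted transcript, and the positions above are counted from the RefSeq starts. Of the 10 genes, 7 have an entry in the promoter table, with 11 starts among them.

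Among the sensors, NLRP3 responds to ion efflux and membrane damage, NLRC4 to bacterial flagellin and secretion proteins through NAIP, and AIM2 to cytosolic DNA. NLRP3 (chromosome 1, 247416156 to 247449108, plus strand, GENCODE 29 on GRCh38) had 52.2 and 51.4 CPM in S1KO, against 50.2 and 62.0 CPM in WT. The S1KO libraries lay between the WT libraries, and the log2 fold change was -0.12 ± 0.18 SE (edgeR adjusted p = 0.76). NLRC4 (chromosome 2, 32224453 to 32265854, minus strand) had 32.0 and 21.9 CPM in S1KO, against 16.1 and 20.8 CPM in WT. Both S1KO libraries were above both WT libraries, by a narrow margin for S1KO 2, and the log2 fold change of 0.54 ± 0.26 SE did not pass (edgeR adjusted p = 0.312). AIM2 (chromosome 1, 159062484 to 159147096, minus strand) was barely detected, with 10 and 7 counts in S1KO, against 6 and 6 counts in WT. The exact 95% Poisson intervals, which cover counting error only, ran from 4.8 to 18.4 and from 2.81 to 14.4 counts in S1KO and from 2.2 to 13.1 counts in each WT library, and all 4 overlapped. Scaled, the levels were 0.674 and 0.329 CPM in S1KO, against 0.214 and 0.192 CPM in WT, so both S1KO libraries lay above both WT libraries at a few counts each. AIM2 did not enter the test with all 4 libraries, and at this depth no difference could be shown. All 10 and 7 S1KO counts, and 5 of 6 in each WT library, fell on AIM2-203, a processed transcript without an annotated coding region, and the annotated coding transcripts of AIM2 had 0 counts in S1KO and 1 count in each WT library.

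The adaptor PYCARD (chromosome 16, 31201485 to 31203450, minus strand) was slightly lower in S1KO, with 126.5 and 125 CPM in S1KO, against 160.5 and 149.6 CPM in WT. Neither S1KO library reached the level of a WT library, and the log2 fold change of -0.30 ± 0.15 SE did not pass (edgeR adjusted p = 0.344). PYCARD had the same sign in all 15 alternative settings of the analysis, from -1.29 to -0.21, and passed in none of them. An antisense gene, PYCARD-AS1, overlaps it and had 0 counts in every library. No source used here says whether strand was kept, so antisense reads could not be told apart.

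CASP1, the protease of the canonical pathway, and CASP4, which binds bacterial lipopolysaccharide directly in the non-canonical pathway, are neighbours on chromosome 11. CASP1 (105025443 to 105035250, minus strand) had 96.8 and 78.0 CPM in S1KO, against 78.3 and 72.0 CPM in WT. The groups overlapped, and the log2 fold change was 0.22 ± 0.18 SE (edgeR adjusted p = 0.543). Of the 31-base stretches in CASP1 transcripts, 7.66% also occur in CARD16, a CARD-only neighbour, so kallisto could divide reads between the genes and the CASP1 level carries that uncertainty. CASP4 (104942866 to 104969436, minus strand) had 31.9 and 28.9 CPM in S1KO, against 25.02 and 28.1 CPM in WT. Both S1KO libraries were above both WT libraries, S1KO 2 by less than 1 CPM, and the log2 fold change was 0.19 ± 0.18 SE (edgeR adjusted p = 0.599).

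GSDMD, the substrate whose fragment forms the pore, lies on chromosome 8 at 143553207 to 143563062, plus strand. It had 61.9 and 77.1 CPM in S1KO, against 61.3 and 73.3 CPM in WT. The libraries of each genotype spanned nearly the same range, and the log2 fold change was 0.05 ± 0.19 SE (95% interval -0.41 to 0.50; edgeR adjusted p = 0.918). Of its 32 transcripts in the files 16 were copies on alternate contigs, and the level is the sum over all of them.

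IL1B (chromosome 2, 112829751 to 112836903, minus strand), the cytokine whose upstream window is shown above, had 1754 and 2661 counts in S1KO, against 5791 and 13126 counts in WT. Scaled, these were 118.2 and 125.1 CPM in S1KO, against 207.0 and 419.0 CPM in WT. The S1KO libraries lay close together and below both WT libraries, while WT 2 held 2.02 times the level of WT 1. The means were 121.6 ± 4.88 CPM in S1KO and 313 ± 149.9 CPM in WT (SD, n = 2 each), and the log2 fold change was -1.36 ± 0.33 SE (95% interval -2.16 to -0.57; edgeR adjusted p = 0.107). The sign was negative in all 15 alternative settings, from -2.35 to -0.76, and over the 15 the adjusted p ran from 6.33e-10 to 0.689. IL1B was called in 6 of the 15: with DESeq2 (adjusted p = 0.000869), with edgeR on unfiltered counts (where 6.05% of all genes were called), against each WT library alone, and with limma on log2(TPM + 1) and log2(TPM + 0.1), where 21.2% and 20.2% of all genes were called.

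IL18 (chromosome 11, 112143251 to 112164117, minus strand), whose precursor many myeloid cells hold without priming, had 37.7 and 36.6 CPM in S1KO, against 19.4 and 30.9 CPM in WT. Both S1KO libraries were above both WT libraries, by much less over WT 2 than over WT 1. The log2 fold change of 0.56 ± 0.25 SE did not pass (edgeR adjusted p = 0.285). On TPM with mitochondrial transcripts in the total the sign turned, to -0.32 with a pseudocount of 1, a scale on which the median of all genes tested was -0.87.

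IL1RN (chromosome 2, 113107214 to 113134016, plus strand), the antagonist that occupies the IL-1 receptor without signalling, had 13.7 and 13.6 CPM in S1KO, against 6.18 and 22.4 CPM in WT. The S1KO libraries were nearly equal and lay between WT libraries that stood 3.62-fold apart. The log2 fold change was -0.07 ± 0.54 SE, with a 95% interval from -1.38 to 1.24 (edgeR adjusted p = 0.957).

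**Figure D1:**
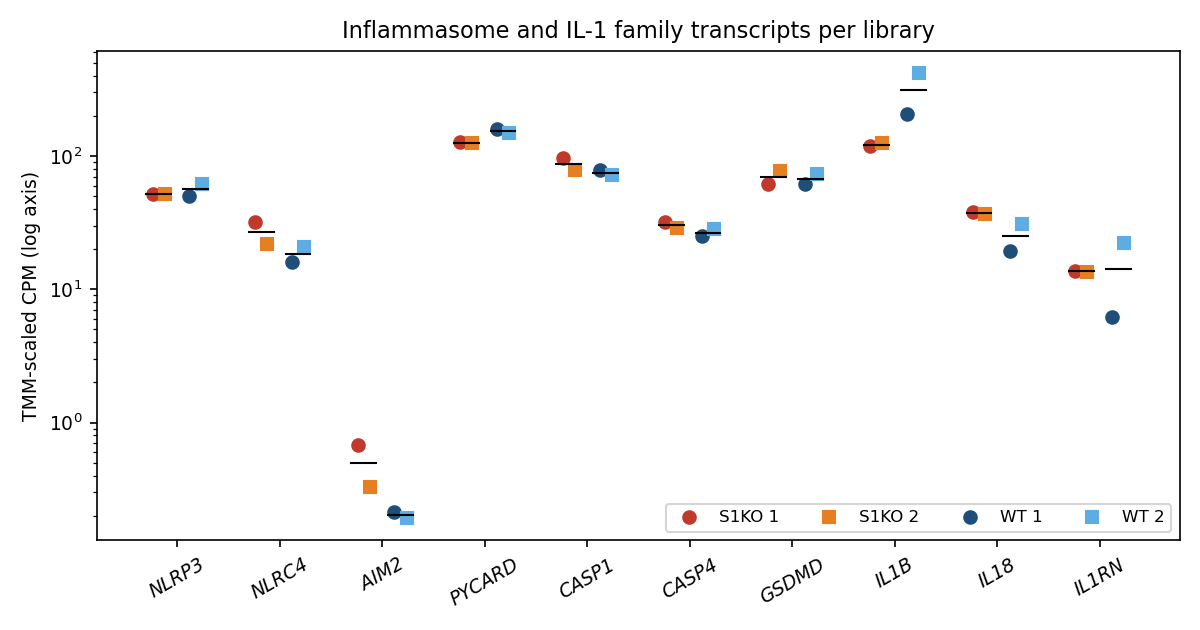
TMM-scaled CPM of the 10 genes on a log axis, 1 point per library, with S1KO left of WT and a black line at the mean of each genotype (n = 2). The S1KO points of IL1B, near 118.2 and 125.1 CPM, lie below the WT points at 207.0 and 419.0 CPM, and the WT points of IL1RN lie on either side of the S1KO points.

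Of the 9 tested genes, 2 had their S1KO values below their WT values without overlap (PYCARD and IL1B), beside 25.8% of all genes tested, and 3 had them above (NLRC4, CASP4 and IL18), beside 26.0%. The 5 of 9 without overlap stand beside 51.8% of all genes, a share near the background. The median log2 fold change of the 9 was 0.05, beside -0.02 over all genes tested.

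S1KO was also set against each WT library alone. In these fits the lone WT library is assumed to vary like the S1KO libraries, and the background of calls is high. Against WT 1, 3 of 9 genes passed in edgeR, beside 13.2% of all genes: IL1B was lower (-0.76 ± 0.22 SE, adjusted p = 0.0133), and IL18 (0.94 ± 0.25 SE, adjusted p = 0.00696) and IL1RN (1.14 ± 0.31 SE, adjusted p = 0.00996) were higher. Against WT 2, 1 of 10 passed in edgeR, beside 12.5% of all genes: IL1B, at -1.78 ± 0.22 SE (adjusted p = 6.33e-10). IL18 was then at 0.27 ± 0.24 SE (edgeR adjusted p = 0.535) and IL1RN at -0.72 ± 0.26 SE (edgeR adjusted p = 0.0545), the opposite sign to its value against WT 1. Both comparisons share the S1KO libraries. NLRC4 was at 0.74 ± 0.27 SE against WT 1 and 0.37 ± 0.26 SE against WT 2 and passed in neither (edgeR adjusted p = 0.0653 and 0.409). The log2 fold changes against WT 1 and WT 2 were -0.35 and -0.25 for PYCARD, 0.16 and 0.28 for CASP1, and 0.28 and 0.11 for CASP4, with SE of 0.22 to 0.24, and none passed. NLRP3 (0.05 and -0.26) and GSDMD (0.18 and -0.07) had opposite signs against WT 1 and WT 2.

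**Figure D2:**
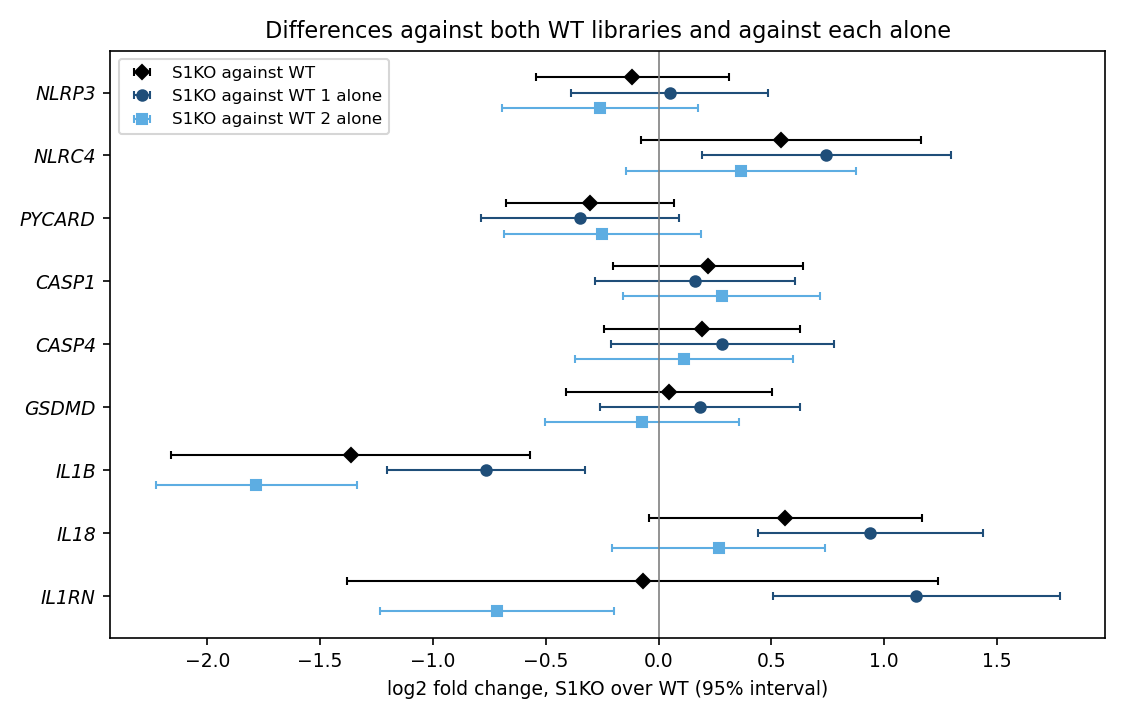
Log2 fold change of S1KO over WT for the 9 tested genes, with 95% intervals, against both WT libraries (black diamonds), WT 1 alone (dark circles) and WT 2 alone (light squares). IL1B is negative in each comparison, at -1.36, -0.76 and -1.78, while IL1RN sits at 1.14 against WT 1 and at -0.72 against WT 2.

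Levels of different genes were compared in TPM, a scale that divides by transcript length. PYCARD was the most abundant of the 10 in S1KO, with 135.5 and 220.4 TPM, and had 468.7 and 379.2 TPM in WT. IL1B had 55.6 and 102.8 TPM in S1KO, against 290.9 and 510.8 TPM in WT, and was second to PYCARD in every library except WT 2, where it was first. CASP1 and GSDMD followed, CASP1 at 39.0 and 48.1 TPM in S1KO and 77.0 and 66.4 TPM in WT, and GSDMD at 23.2 and 50.2 TPM in S1KO and 57.2 and 65.4 TPM in WT, in an order that turned in S1KO 2 and that their spread does not separate. NLRP3, CASP4 and IL18 formed the middle, between 9.66 and 49.6 TPM, without a fixed order across libraries. NLRC4 and IL1RN lay between 6.3 and 21.4 TPM, and AIM2 was last, at 0.47 to 0.63 TPM. Mitochondrial transcripts took 66.85% and 54.73% of the TPM total in S1KO, against 24.61% and 30.26% in WT, so genotypes were compared through ratios within a library. IL1B to IL1RN, each summed over all its transcripts, was 8.8 and 12.3 in S1KO, against 46.2 and 23.8 in WT. IL1B to IL18 was 2.56 and 3.08 in S1KO, against 10.4 and 12.5 in WT, and IL1B to CASP1 was 1.43 and 2.14 in S1KO, against 3.78 and 7.69 in WT. In each of these 3 ratios both S1KO libraries were below both WT libraries, a description without a test. All 3 share IL1B as numerator, so they restate its lower level and are not 3 separate results. IL1B to IL1A, another ligand of the family, was 21.5 and 19.6 in S1KO, against 27.4 and 28.6 in WT, a narrower gap than those 3.

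Within genes, reads were divided among annotated transcripts by kallisto, and the shares below carry Wilson 95% intervals that cover counting error only, not the uncertainty of that division. NLRP3-208, a 579-nt transcript annotated as retaining an intron, took 2.41% (1.58 to 3.80) and 4.12% (3.09 to 5.46) of NLRP3 counts in S1KO, against 6.35% (5.18 to 7.74) and 12.8% (11.4 to 14.3) in WT. Because it is short, it took 20.7% and 31.3% of NLRP3 TPM in S1KO, against 42.7% and 60.4% in WT. The log2 fold change of NLRP3 was -0.67 with an offset for effective length (edgeR adjusted p = 0.234). It was 0.07 with protein-coding transcripts only (edgeR adjusted p = 0.864). Of the 15 alternatives 2 called NLRP3, those on TPM with mitochondrial transcripts in the total, at -1.55 and -1.62 (lowest limma adjusted p = 0.0214). All NLRC4 counts were on transcripts annotated as coding, but their division differed. NLRC4-201, a 1362-nt form with 1077 coding bases, held 7.85% (5.70 to 10.6) and 21.6% (18.01 to 25.5) of NLRC4 counts in S1KO, against 29.3% (25.3 to 33.7) and 44.2% (40.5 to 48.1) in WT. NLRC4-203, with 3072 coding bases, held 92.1% and 78.4% in S1KO, against 64.3% and 52.3% in WT. The intervals of S1KO 2 and WT 1 met at their edges, while S1KO 1 lay below and WT 2 above both, so libraries of 1 genotype also differed from each other. With the offset for effective length the log2 fold change of NLRC4 was 0.14 ± 0.27 SE, and without S1KO 1 it was 0.24 ± 0.28 SE; over its 15 alternatives the edgeR, DESeq2 or limma adjusted p ran from 0.0653 to 0.823.

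CASP1 was carried by a pair of forms of equal coding length (1212 bases), CASP1-215 and CASP1-202. CASP1-202 held 41.0% and 23.8% of CASP1 counts in S1KO, against 23.5% and 7.65% in WT, with S1KO 2 and WT 1 nearly equal. Transcripts annotated as retaining an intron held a large part of GSDMD, 50.8% and 64.8% of counts in S1KO, against 57.2% and 67.0% in WT. They held 30.2% and 41.9% of IL18 in S1KO, against 47.5% and 38.2% in WT, and 27.9% and 40.03% of CASP4 in S1KO, against 27.7% and 34.7% in WT. For these 3 genes the genotypes overlapped. For IL1B they held 10.3% (8.98 to 11.8) and 11.8% (10.6 to 13.0) in S1KO, against 15.2% (14.3 to 16.1) and 13.2% (12.6 to 13.8) in WT. Over all protein-coding nuclear genes the share was 7.64% and 10.8% in S1KO, against 10.7% and 12.3% in WT, so GSDMD, CASP4 and IL18, and by less IL1B, held a larger share than these genes together in every library. IL1B was mostly the full-length form IL1B-201, at 87.7% and 86.6% of counts in S1KO, against 82.0% and 82.2% in WT. IL1RN was read mainly from the upstream start printed above, with IL1RN-202 and IL1RN-201 both beginning at 113117897, inside the upstream window. IL1RN-202 held 57.0% and 90.1% of IL1RN counts in S1KO, against 96.7% and 84.3% in WT. IL1RN-201 held 24.6% and 8.62% in S1KO, against 0% and 7.12% in WT. The forms differ in coding length, with 477 bases in IL1RN-202, 540 in IL1RN-201 and 531 in IL1RN-205, and the IL1RN level sums them. IL1RN-205, which begins at 113127561 inside the downstream window, held 37.4 and 1.73 counts in S1KO, against 5.69 and 33.1 counts in WT, not scaled for depth, with no order between the genotypes.

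**Figure D3:**
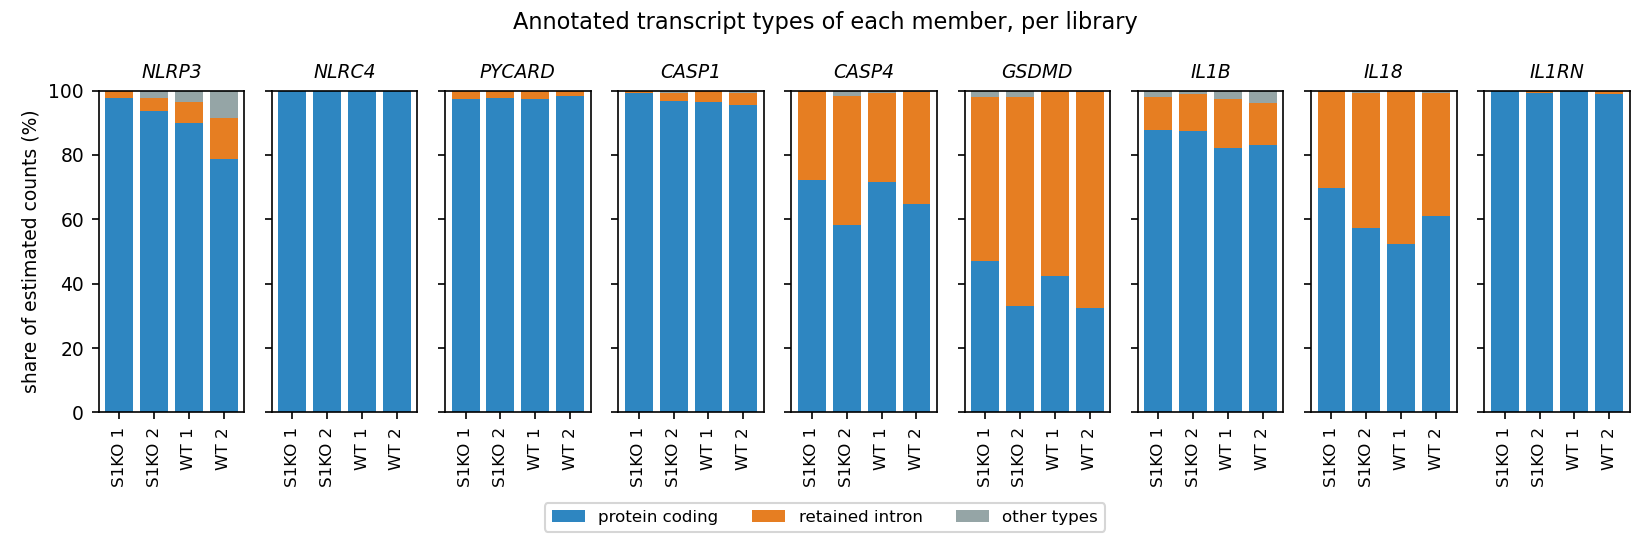
Share of each gene's estimated counts on transcripts annotated as protein coding (blue), as retaining an intron (orange) or as any other type (grey), for the 2 S1KO and the 2 WT libraries; AIM2, with at most 10 counts, is left out. The retained-intron share of NLRP3 was 2.41% and 4.12% in S1KO and 6.35% and 12.8% in WT, while those of GSDMD, IL18 and CASP4 overlapped between genotypes.

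The wider pathway was covered by 6 lists with 88 genes, of which 65 passed the filter. In edgeR 0 of the 65 passed an adjusted p of 0.05, beside 0.936% of all genes tested. At an unadjusted p under 0.05 there were 6 higher and 17 lower of the 65, beside 19.5% of all genes in either direction. DESeq2, run without the filter, called 5 genes of the lists (PSTPIP1, MYD88, NFKB1, TNFAIP3 and SOD2), beside 4.99% of its unfiltered genes. Its adjusted p was 0.00137 for PSTPIP1, 0.0282 for TNFAIP3 and 0.0148 for SOD2. The median edgeR log2 fold change of the 65 was -0.18, beside -0.02 over all genes tested. Among the other sensors and regulators of assembly (17 of 23 tested), the smallest p belonged to PSTPIP1, a pyrin-binding scaffold, with 17.99 and 14.7 CPM in S1KO, against 38.9 and 30.97 CPM in WT (-1.10 ± 0.21 SE, edgeR adjusted p = 0.083). MEFV, which encodes pyrin itself, had 3.976 and 3.996 CPM in S1KO, against 7.54 and 9.16 CPM in WT (-1.07 ± 0.30 SE, edgeR adjusted p = 0.14). Both S1KO libraries were below both WT libraries for this pair, as they were for 25.8% of all genes tested. In this list and those below, genes were named for small p unless stated, which favours separation in either direction. BRCC3, which removes ubiquitin from NLRP3, was higher in both S1KO libraries, at 34.4 and 26.8 CPM, against 18.9 and 19.2 CPM in WT (0.68 ± 0.20 SE, edgeR adjusted p = 0.154). GBP2, an interferon-induced GTPase, rested on few counts, 19 and 39 in S1KO against 2 and 9 in WT (edgeR adjusted p = 0.116).

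Of the other caspases, gasdermins and pore genes (9 of 12 tested), NINJ1, which ruptures the plasma membrane after pore formation, had 152.4 and 130.0 CPM in S1KO, against 190.0 and 214.6 CPM in WT (-0.52 ± 0.17 SE, edgeR adjusted p = 0.192). GSDMA rested on 18 and 31 counts in S1KO against 13 and 8 in WT, CASP5, the neighbour of CASP4, on 45 and 16 against 17 and 24, and GSDME was at 13.6 and 10.6 CPM in S1KO against 12.5 and 6.77 CPM in WT. Only IL1A and IL33 of the 8 other IL-1 family ligands passed the filter. IL1A had 8.83 and 10.9 CPM in S1KO, against 13.7 and 25.6 CPM in WT (-0.99 ± 0.34 SE, edgeR adjusted p = 0.195), the same order of libraries as IL1B. IL33 had 5 and 9 counts in S1KO, against 15 and 12 in WT.

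Among receptors and binding proteins (7 of 11 tested), the 3 genes of smallest p were IL18R1, IL18RAP and IL18BP, and none passed. IL18R1, the receptor chain, had 4.38 and 4.47 CPM in S1KO, against 6.72 and 13.9 CPM in WT (-1.22 ± 0.40 SE, edgeR adjusted p = 0.184). Its partner IL18RAP had 0 and 3 counts in S1KO, against 10 and 31 counts in WT (edgeR adjusted p = 0.23). IL18BP, the soluble protein that neutralizes IL-18, had 22.03 and 28.96 CPM in S1KO, against 35.4 and 36.6 CPM in WT (-0.49 ± 0.20 SE, edgeR adjusted p = 0.248). These 3, which are the ones of smallest p in their list, were lower in both S1KO libraries, as were 25.8% of all genes tested. The TPM ratio of IL18 to IL18BP was 2.95 and 2.02 in S1KO, against 0.935 and 1.51 in WT. IL1RL1, the IL-33 receptor, had 10 and 26 counts in S1KO, against 14 and 6 in WT.

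In the receptor and priming signal (18 of 18 tested), MYD88, the adaptor shared by IL-1 and Toll-like receptors, had 7.14 and 4.56 CPM in S1KO, against 16.2 and 30.6 CPM in WT. Both S1KO libraries were far below both WT libraries, at a log2 fold change of -2.005 ± 0.39 SE that did not pass over all genes (edgeR adjusted p = 0.0798; DESeq2 adjusted p = 9.98e-05). NFKB1, which encodes the p105 and p50 subunit, ran the other way, with 8.15 and 12.03 CPM in S1KO, against 3.18 and 4.18 CPM in WT (1.46 ± 0.34 SE, edgeR adjusted p = 0.101; DESeq2 adjusted p = 0.0121). TNFAIP3, which encodes the inhibitor A20, had 79.3 and 77.3 CPM in S1KO, against 106.7 and 161.8 CPM in WT (-0.78 ± 0.23 SE, edgeR adjusted p = 0.148). NFKBIZ, an inducible nuclear regulator, had 34.2 and 29.6 CPM in S1KO, against 35.3 CPM in WT 1 and 120.0 CPM in WT 2 (-1.29 ± 0.52 SE, edgeR adjusted p = 0.246).

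The response genes of IL-1 and NF-kappaB (12 of 16 tested) separated WT 2 from the other 3 libraries. Of the 12, 9 were highest in WT 2, beside 27.1% of all genes tested, and 7 were over 2-fold higher in WT 2 than in WT 1, beside 6.64% of all genes. TNF had 21.0 and 24.3 CPM in S1KO, against 31.9 CPM in WT 1 and 104.4 CPM in WT 2. PTGS2, the inducible cyclooxygenase, had 3.64 and 3.76 CPM in S1KO, against 2.04 CPM in WT 1 and 94.6 CPM in WT 2. ICAM1, an adhesion molecule, had 52.1 and 65.7 CPM in S1KO, against 72.8 CPM in WT 1 and 275.9 CPM in WT 2. In these 3 genes WT 1 lay nearer to the S1KO libraries than to WT 2. The 3 genes that were not highest in WT 2 had positive log2 fold changes. They were SOD2, the mitochondrial superoxide dismutase, with 268.6 and 181.1 CPM in S1KO, against 95.9 and 136.9 CPM in WT (0.95 ± 0.27 SE, edgeR adjusted p = 0.139), and, named after their values were seen, CCL20 (0.59 ± 0.44 SE) and BCL2A1 (0.32 ± 0.33 SE). The median log2 fold change of the list was -1.47 against both WT libraries, 0.20 against WT 1 alone and -2.19 against WT 2 alone. Of the 13 tested in each of those fits edgeR called 1 lower and 1 higher against WT 1, beside 7.32% and 5.92% of all genes, and 8 lower and 1 higher against WT 2, beside 6.53% and 5.96%. IL1B and IL1RN were the members of the set of 10 that lay over 2-fold higher in WT 2 than in WT 1, and the part that the difference between the WT libraries has in their values was not tested. Against WT 1 alone, a comparison resting on 1 WT library, the log2 fold change was -0.76 for IL1B and 1.14 for IL1RN. In the same fit it was -0.49 for TNF, -0.30 for ICAM1 and 0.86 for PTGS2.

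**Figure D4:**
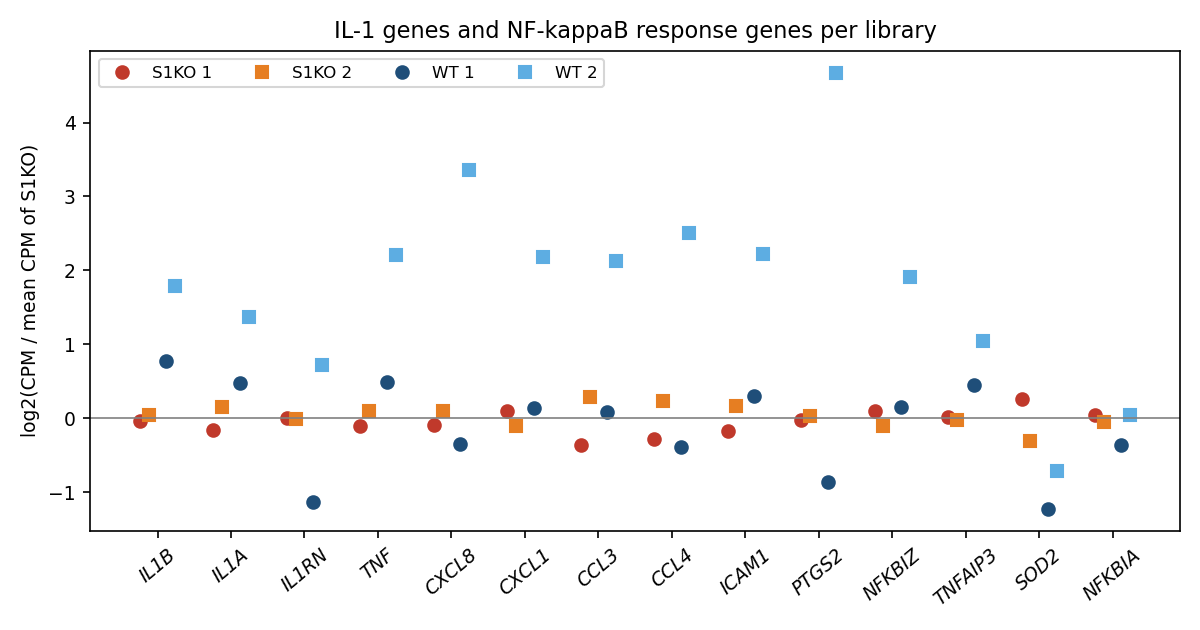
Log2 of the CPM in each library over the mean CPM of the S1KO libraries, for IL1B, IL1A, IL1RN and genes of the priming and response lists. WT 2 lies well above the other 3 libraries for TNF, PTGS2 and ICAM1 (104.4, 94.6 and 275.9 CPM). For IL1B and IL1A both WT libraries lie above the S1KO libraries, as they also do for TNF and ICAM1 but not for PTGS2.

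**Figure D5:**
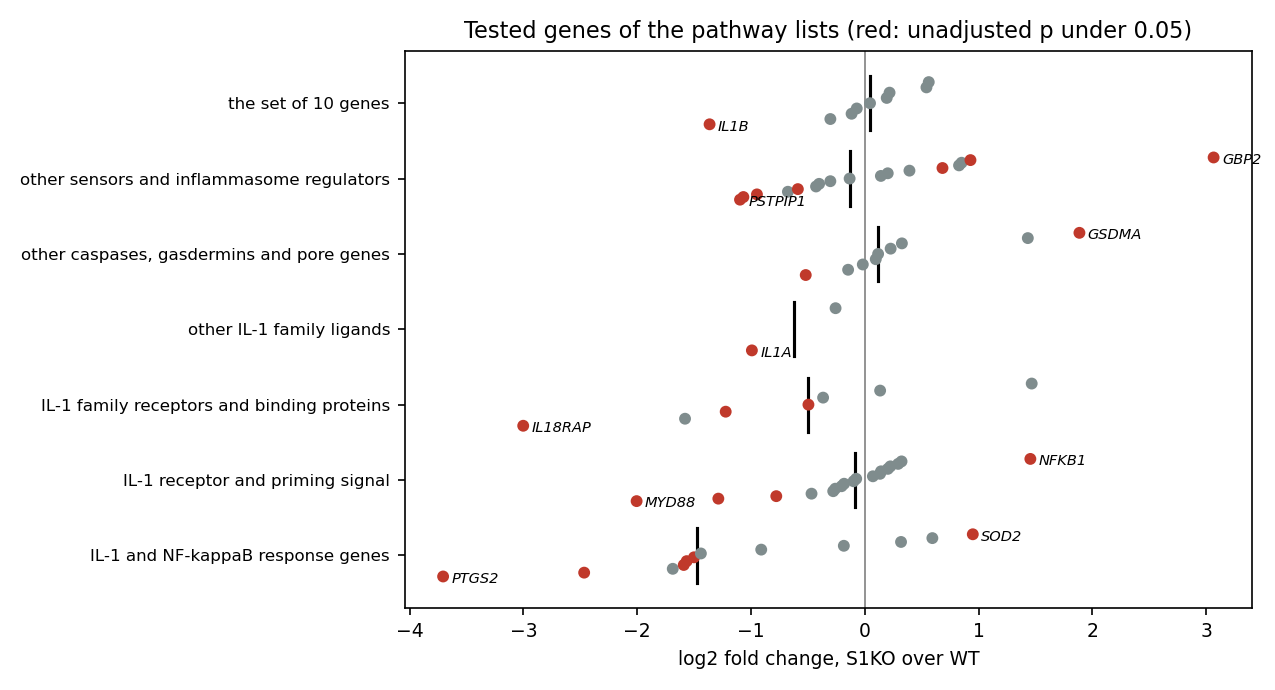
Log2 fold change of S1KO over WT for the tested genes of the set of 10 and of the 6 pathway lists, 1 point per gene, red where the unadjusted p was under 0.05, with a black line at the median of each list. The response list has the lowest median, -1.47, and no gene shown passed an adjusted p of 0.05 in edgeR with all libraries.

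The genes whose levels ran most like those of 3 members over the 4 libraries were ranked among 8619 protein-coding genes by the root mean square distance between centred log2 CPM, a description over 4 points that share depth and scaling. Nearest to IL1B were TRPV4, a calcium channel (distance 0.05), FUT7, a fucosyltransferase (0.05), IER3, an immediate early gene (0.11), MARC2 (0.12) and SEL1L3 (0.12). IER3 had 65.9 and 84.4 CPM in S1KO, against 138.0 and 251.2 CPM in WT. Nearest to IL18 were RALA, GIN1, PRMT9, ARHGAP22 and EML1, at distances of 0.05 to 0.07, and nearest to CASP1 were RPP14, SEPT10, AMBRA1, CLPX and BRAP, at 0.01 to 0.02. No other member of the set was among the 5 nearest of IL1B, IL18 or CASP1: the closest to IL18 was NLRC4, at rank 350, the closest to CASP1 was CASP4, at rank 836, and the closest to IL1B was PYCARD, at rank 2286.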

How the data were processed

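Poly-A RNA of 4 iMGL libraries (2 S1KO, 2 WT) was sequenced as paired reads of 150 bp, per the labels' protocols. Per the submitters' processing notes the authors used kallisto and hg38; no source used here gives its version or transcript set. Per the file headers the deposited values are an estimated count and a TPM per transcript, with length and effective length.

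Transcripts were summed to genes with GENCODE 29 (169797 matched by identifier, 15521 by symbol, 3435 unnamed and left out, 0.323% to 0.643% of counts), and 93.6% of the lengths compared equalled release 29. Sums were rounded, filtered by filterByExpr (15378 of 35585 genes), scaled by TMM (factors 0.654 and 0.957 in S1KO, 1.31 and 1.22 in WT) and tested with edgeR 4.0.16 (quasi-likelihood, two-sided, genotype the only term, R 4.3.3) with Benjamini-Hochberg adjustment over all genes tested. A gene had up to 6.4 degrees of freedom in all, and the biological coefficient of variation was 0.294. The scripts were tested on simulated data. No library repeated another: each pair had 261 or more genes over 4-fold apart. Alternatives used DESeq2 1.42.0 and limma 3.58.1 among other settings. Named genes were the 10 members, INPP5D, in each pathway list those called and up to 4 of smallest p, and the 5 genes nearest in pattern to IL1B, IL18 and CASP1. The members, lists and rules were chosen with earlier results of these data known.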

Additional observations from a re-analysis of the deposited data

How the results depend on the processing

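Leaving out 1 library at a time gave 0 to 2148 genes called, against 144 with all 4: 0 when either S1KO library was dropped (1171 and 1636 genes had an unadjusted p under 0.05), 2007 when WT 1 was and 2148 when WT 2 was. Members called ran from 0 to 3 and pathway genes called from 0 to 22 in these fits, and DESeq2 and edgeR with no filter gave 1 and 1 members, 5 and 17 pathway genes and 1124 and 1362 genes overall. A stricter filter called 223 genes, protein-coding transcripts only 21, and an adjusted p of 0.1 called 636 genes, 2 of the pathway genes among them. The labels do not say whether the replicate numbers pair the libraries, and the correlation of deviations, 0.02, cannot decide it. With the numbers as a replicate block 0 genes were called (2892 at an unadjusted p under 0.05) and IL1RN was at 0.19.

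limma on log2(TPM + 1) and log2(TPM + 0.1), whose totals include mitochondrial transcripts, moved the median of all genes to -0.87 and -1.01. It called 2843 and 2704 genes, or 21.2% and 20.2% of those tested. Among them were 2 members each (IL1B and NLRP3) and 20 and 19 pathway genes, and the members' median was -0.82 and -0.84. There the sign turned for NLRC4 (-0.75 and -0.82), CASP1 (-0.71 and -0.72), CASP4 (-0.95 and -0.98), GSDMD (-0.82 and -0.84) and IL18 (-0.32 and -0.33), none of them called. With TPM rescaled without mitochondrial genes, limma called 277 genes, the members' median was 0.24 and IL1RN was at 0.37. On that scale NLRC4 (0.24), CASP1 (0.36), CASP4 (0.09), GSDMD (0.24) and IL18 (0.74) were positive. No member was called there, with IL1B at -1.27 and NLRP3 at -0.53. Other turns of sign were NLRP3 without 1 library (from -0.26 without WT 1 to 0.049 without WT 2) and with protein-coding transcripts only (0.0685), GSDMD without WT 1 (-0.07) and without S1KO 2 (-0.14), and IL1RN without WT 2 (1.14) and with the effective length offset (0.0321). For these turns, and for the calls lost or gained, the cause was not tested. With 2 libraries a group and a within-WT difference of 2.02-fold in IL1B and 3.62-fold in IL1RN, the precision of both genes is limited by the spread between libraries rather than by counts, whereas AIM2 is limited by depth.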
